A study of Mus musculus with 8 samples.

Results

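Neat1, Malat1, Gas5, Snhg1, Snhg3, Snhg5, Snhg12 and Snhg15 are long noncoding RNAs that were taken by name among the 24421 genes of the RNA-seq tables. All 8 had a row, 7 under these symbols and Snhg15 under its older symbol Gm11974, and all 8 passed the filter on low values described below. The cells were RAW macrophages, a mouse tumour line long used as a model of macrophages, and 2 libraries were sequenced for each of 4 groups. The ctl group received nothing, and the MCD group received 5 mM methyl-β-cyclodextrin, a sugar ring that strips cholesterol from membranes, for 1 h. The LPS group received 100 ng/ml lipopolysaccharide, the bacterial trigger of TLR4, for 3 h, and the MCD-LPS group received both. By the methods of the study, MCD was washed out before LPS was added, so that MCD-LPS cells were harvested 3 h after MCD had ended and MCD cells directly after it. Ribosomal RNA was depleted rather than poly(A) RNA selected, so RNAs without a poly(A) tail can be present. No label states whether paired libraries came from independent cultures, and each p-value therefore reflects only how far these libraries lay apart, a spread that may be technical.

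Neat1 and Malat1 are nuclear RNAs made from adjoining genes. Neat1 is the RNA scaffold of paraspeckles, nuclear bodies that form on its long isoform and hold proteins such as SFPQ, NONO and PSPC1. Malat1 gathers in nuclear speckles, which store splicing factors. Gas5 and the Snhg genes are hosts of small nucleolar RNAs (snoRNAs), which lie in their introns, are cut out during splicing and guide the chemical modification of ribosomal and other RNAs. The spliced host RNA is often a product with short reading frames that nonsense-mediated decay removes during translation, and several hosts start, like ribosomal protein genes, with a run of pyrimidines.

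In the GRCm38 annotation Neat1 lies on chromosome 19 at 5824708 to 5845478, minus strand, and Malat1 22036 bases below it on the same strand, at 5795690 to 5802672. Gas5 lies on chromosome 1 at 161034422 to 161038539, plus strand, and holds 9 snoRNA genes. Snhg1 lies on chromosome 19 at 8723475 to 8726443, plus strand, with 8 snoRNA genes. Snhg12 (132308623 to 132311024, plus strand, 4 snoRNA genes) and Snhg3 (132348014 to 132353686, minus strand, 2 snoRNA genes) lie close together on chromosome 4. Snhg5 lies on chromosome 9 at 88521050 to 88522929, minus strand, with 2 snoRNA genes, and Snhg15 on chromosome 11 at 6525591 to 6528760, minus strand, with 1. The Neat1 gene makes a long isoform of 20771 bases and a short one of 3170 bases that start within a few bases of each other, and the tables give 1 value for both.

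The sequence around the start of transcription is shown, because snoRNA hosts are known for a pyrimidine run at that place. Each is 80 bases from RefSeq (GRCm38.p6, 5′ to 3′, from 50 bases before the start to 30 bases from it), and capitals mark the longest unbroken run of C and T within 20 bases on either side of the start. For Gas5 the window used by 13 of its 25 annotated transcripts is shown. For Neat1 the first 60 bases of the long isoform in GENCODE M21 are given, without capitals.
Gas5, chr1:161035116-161035195, plus: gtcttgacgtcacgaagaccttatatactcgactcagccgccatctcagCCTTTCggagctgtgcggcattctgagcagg
Snhg1, chr19:8723437-8723516, plus: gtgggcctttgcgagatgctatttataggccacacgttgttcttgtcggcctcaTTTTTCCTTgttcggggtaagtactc
Snhg12, chr4:132308628-132308707, plus: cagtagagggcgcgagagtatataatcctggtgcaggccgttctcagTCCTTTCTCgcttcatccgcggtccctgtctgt
Snhg5, chr9:88522868-88522947, minus: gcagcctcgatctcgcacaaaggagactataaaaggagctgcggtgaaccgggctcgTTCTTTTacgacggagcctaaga
Snhg3, chr4:132353657-132353736, minus: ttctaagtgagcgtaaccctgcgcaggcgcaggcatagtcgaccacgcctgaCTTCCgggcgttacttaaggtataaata
Snhg15, chr11:6528731-6528810, minus: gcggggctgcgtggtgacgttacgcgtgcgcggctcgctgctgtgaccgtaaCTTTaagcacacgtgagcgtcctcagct
Malat1, chr19:5802643-5802722, minus: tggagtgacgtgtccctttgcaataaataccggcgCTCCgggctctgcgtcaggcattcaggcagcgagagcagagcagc
Neat1, chr19:5845419-5845478, minus: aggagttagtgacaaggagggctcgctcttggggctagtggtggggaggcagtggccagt

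The run was 9 bases in Snhg1 and Snhg12, 7 in Snhg5, 6 in Gas5, 5 in Snhg3 and 4 in Snhg15 and Malat1. Over all 32851 promoter windows of the same length the median was 5 bases, 10.7% had a run of 9 or more and 37.5% had one of 6 or more. The runs of Snhg1 and Snhg12 were therefore among the longer ones, and those of Gas5, Snhg3, Snhg15 and Malat1 were within 1 base of the median. Only the runs of Gas5 (from base −1) and Snhg12 (from base −3) crossed the start. Those of Snhg3 and Snhg15 began at base 3, of Snhg1 at base 5 and of Snhg5 at base 8, and that of Malat1 at base −15. A run is a description of these letters and not a measured site.

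The libraries held 38645458 to 48436956 reads in genes. Over genes at 100 or more, the log2 ratio between partner libraries had an SD of 0.172 in the LPS group, where the libraries differed most, against 0.0921 in MCD, 0.0949 in ctl and 0.120 in MCD-LPS. Of 10 macrophage markers fixed for the cell check, 9 passed the filter on low values (Csf1r 1684 to 1890 CPM, with CPM being reads per 1000000 reads in genes), and Mertk reached at most 0.159 CPM. The summed markers of T cells, B cells, neutrophils, fibroblasts and epithelial cells stayed at 0.245 CPM or less in every library, with Cd8a, Ms4a1, S100a9 and Krt18 at 0. Of the endothelial markers, Cdh5 passed the filter on low values with 0.228 to 1.72 CPM, and the sum of Cdh5 and Pecam1 was at most 2.07 CPM.

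Per read, Malat1 and Neat1 were the most abundant of the 8 RNAs in each library. Neat1 stood at 262 ± 15.2 CPM in ctl, 169 ± 5.12 in MCD, 625 ± 273 in LPS and 772 ± 45.4 in MCD-LPS (SD, n = 2 for each group here and below). Malat1 stood at 233 ± 14.5, 181 ± 15.8, 738 ± 258 and 760 ± 37.6 CPM in the same groups. In bulk libraries such as these, fewer cells holding an RNA and less RNA per cell cannot be told apart. Over the 8 libraries Malat1 ranked between place 112 and place 1268 of all genes by reads, and Neat1 between place 134 and place 1318.

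Gas5 was the most abundant host, at 91.0 ± 5.02 CPM in ctl, 89.3 ± 0.960 in MCD, 113 ± 20.1 in LPS and 134 ± 1.33 in MCD-LPS. Snhg1 followed at 52.0 ± 1.53, 48.8 ± 4.94, 43.4 ± 0.711 and 40.6 ± 3.12 CPM. The other hosts stayed below 20 CPM in every library. Gas5 gave 44.0% to 48.4% of the summed reads of the 6 hosts in ctl and MCD libraries and 52.0% to 58.3% in LPS and MCD-LPS libraries.

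**Figure D1:**
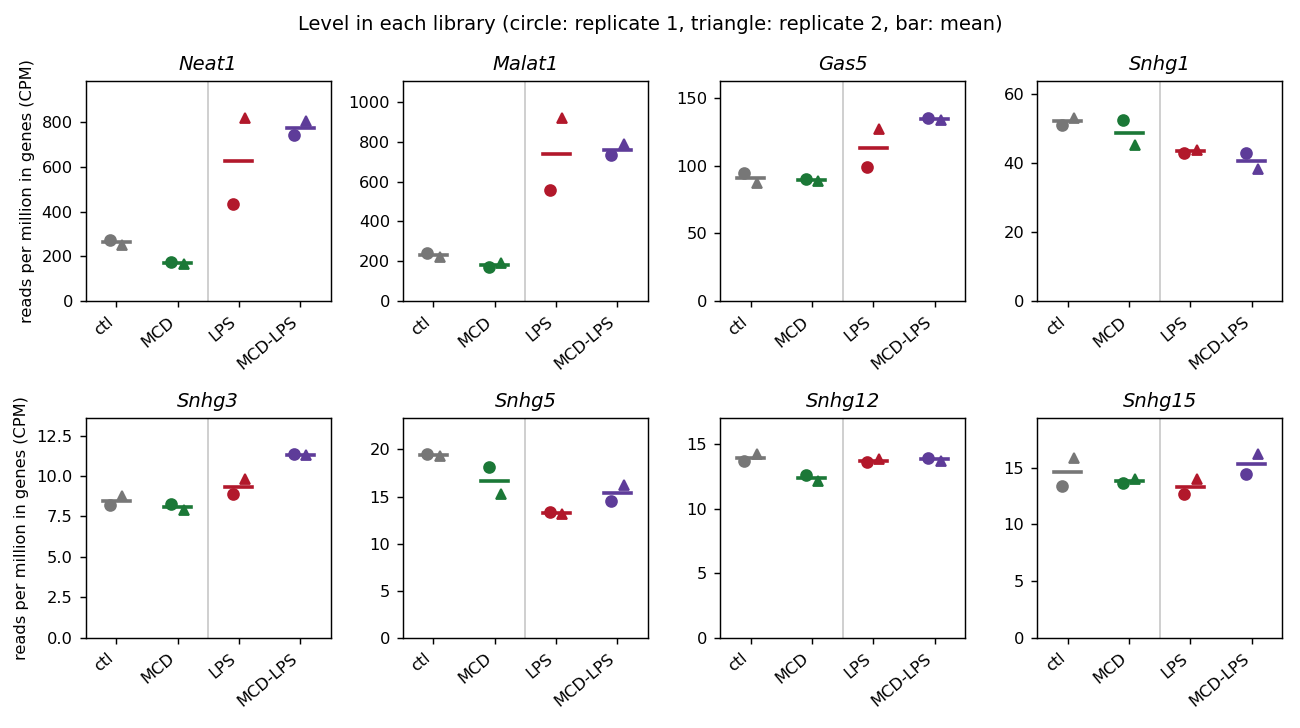
Level of each RNA (CPM, linear axis from 0) in the 4 groups, with a circle for replicate 1, a triangle for replicate 2 and a bar for the mean of 2 libraries. The grey line separates the tables, which were normalized separately. Neat1 and Malat1 stand higher in all 4 LPS and MCD-LPS libraries than in ctl and MCD libraries, and their LPS replicates lie far apart.

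Per kilobase of annotated exon, which allows levels to be compared between genes, the order in ctl libraries was Malat1 (33.4 CPM per kb), Gas5 (24.2), Snhg1 (17.5), Neat1 (12.6), Snhg5 (11.2), Snhg15 (10.8), Snhg3 (8.60) and Snhg12 (5.80). Snhg5 and Snhg15 could not be ordered, since the Snhg15 replicates (9.86 and 11.6 CPM per kb) lay on either side of the Snhg5 replicates. In LPS libraries Malat1 led at 106 CPM per kb, followed by Neat1 and Gas5 at 30.1 each, Snhg1 (14.6), Snhg15 (9.81), Snhg3 (9.47), Snhg5 (7.66) and Snhg12 (5.71). There the ranges of Neat1 and Gas5 overlapped, and so did those of Snhg15 and Snhg3. The exon length of Neat1 is that of its long isoform, so reads of a short isoform would lower its value per kilobase. Annotated exons cover all 2969 bases of Snhg1, all 2402 of Snhg12, 3760 of 4118 in Gas5 and 1730 of 1880 in Snhg5. In Snhg3 they cover 986 of 5673 bases and in Snhg15 1359 of 3170. The order of the hosts depends in part on these lengths. The annotation behind the deposited tables is not settled, so these lengths are those of GENCODE M21.

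The 2 LPS libraries disagreed on the nuclear RNAs. Neat1 was at 17369 normalized counts (reads divided by the size factor of a library) in LPS replicate 1 and 32979 in LPS replicate 2, a ratio of 1.90. Malat1 was at 22320 and 37098, a ratio of 1.66. Gas5 was at 3971 and 5130, a ratio of 1.29. Of 10224 genes at 100 or more in both LPS libraries, 0.333% differed more between them than Neat1, 0.567% more than Malat1 and 3.83% more than Gas5. Snhg1, Snhg3, Snhg5, Snhg12 and Snhg15 differed by 0.16 or less on the log2 scale between the LPS libraries, and 24.1% to 88.2% of genes differed more. In the ctl, MCD and MCD-LPS pairs the log2 ratio of Neat1 stayed between −0.11 and 0.10.

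**Figure D2:**
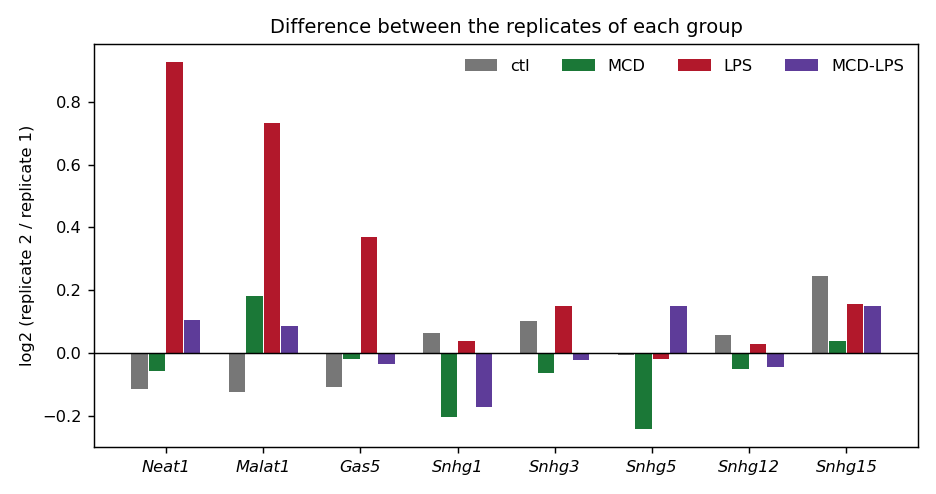
Log2 ratio of replicate 2 to replicate 1 (normalized counts) for each RNA, 1 bar per group. The LPS bars of Neat1 (0.93), Malat1 (0.73) and Gas5 (0.37) are the tallest, and the other bars lie between −0.24 and 0.24.

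The comparison of MCD with ctl asked how removal of cholesterol for 1 h changed these RNAs in resting cells. Neat1 was the RNA that stood farthest from ctl, with 12384 and 11437 normalized counts in ctl libraries and 7878 and 7567 in MCD libraries. Both MCD libraries lay below both ctl libraries, and the fitted level was 0.65 of that in ctl (log2 fold change −0.62, SE 0.22, 95% interval −1.11 to −0.14). The adjusted p was 0.310 (limma across all genes, 8 libraries, Benjamini-Hochberg), so the value did not pass the threshold of 0.05. In that fit all groups share 1 estimate of the spread per gene, to which the LPS libraries contribute.

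Without the LPS and MCD-LPS libraries, the same log2 fold change of Neat1 had an SE of 0.04 and an adjusted p of 1.7e-08 (limma on the 4 libraries of the table). Without LPS replicate 1 or LPS replicate 2 alone its adjusted p was 1.9e-05 or 1.7e-05 in the limma fit. Malat1 behaved in the same manner. It was at 11037 and 10133 normalized counts in ctl and at 7740 and 8779 in MCD libraries, with a log2 fold change of −0.36 (SE 0.18, adjusted p = 0.542 in the 8-library limma fit). Its adjusted p was 3.0e-04 in the limma fit of 4 libraries, 0.0082 without LPS replicate 1 and 0.0081 without LPS replicate 2. The call on both nuclear RNAs thus turned on whether the LPS replicates entered the estimate of the spread.

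The hosts moved less. Snhg5 was at 883 and 880 normalized counts in ctl and at 824 and 698 in MCD libraries (log2 fold change −0.22, SE 0.09, limma adjusted p = 0.415). Snhg12, host of box C/D and box H/ACA snoRNAs, was at 620 and 645 in ctl and at 573 and 553 in MCD libraries (−0.17, SE 0.07, limma adjusted p = 0.407). For both, the MCD libraries lay below the ctl libraries without overlap. Gas5 was at 4289 and 3977 in ctl and 4102 and 4051 in MCD libraries, which overlapped, and the 95% interval of its log2 fold change was −0.23 to 0.20. Snhg1 (−0.09), Snhg15 (−0.07) and Snhg3 (−0.06) overlapped between the groups too.

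Of the 8 RNAs, 0 were called by limma in MCD against ctl, where 1.11% of 11777 genes were called, 127 of them higher and 4 lower. At an unadjusted p under 0.05 there were 3 of 8 (Neat1, Snhg5 and Snhg12), against 10.7% of all genes. By edgeR and by DESeq2 on recovered reads 0 of 8 were called in the 8-library fits, and in the limma fit of 4 libraries 2 of 8 were called lower and 0 higher, against 0.976% and 3.82% of all genes. The log2 fold changes of all 8 were below 0, with a median of −0.13, against −0.002 over all genes. The MCD libraries lay wholly below the ctl libraries for 4 of 8 RNAs and wholly above them for 0, against 23.9% and 24.0% of all genes.

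The comparison of MCD-LPS with LPS asked how cholesterol removal before LPS changed the RNAs in stimulated cells. Snhg3, host of box H/ACA snoRNAs, rose 1.23-fold, from 356 and 395 normalized counts in LPS to 465 and 458 in MCD-LPS libraries (log2 fold change 0.30, SE 0.09, limma adjusted p = 0.0305). The groups did not overlap. The adjusted p over the alternatives ran from 0.0167 to 0.129, and the call held in 8 of 17 of them. It was lost in the fits of 4 libraries (limma adjusted p = 0.0822), with DESeq2 (0.0912) and without LPS replicate 1 (0.22, limma adjusted p = 0.129), without MCD replicate 1 or 2 (adjusted p = 0.0512 and 0.0510) and without MCD-LPS replicate 1 or 2 (adjusted p = 0.118 and 0.0990).

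The annotated span of Snhg3, introns included, shares 5592 bases with Rcc1, a protein-coding gene on the same strand. Rcc1 encodes the exchange factor of the GTPase Ran. Reads of the pair may have been split by the counting. Rcc1 was at 2005 and 1808 normalized counts in LPS and at 2044 and 2000 in MCD-LPS libraries (log2 fold change 0.09, SE 0.05, limma adjusted p = 0.276). Its levels were 4018 and 4153 in ctl and 4012 and 4055 in MCD libraries. The overlap of their exons was not measured, so how far it affects the value of Snhg3 is not known.

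Gas5 was at 5550 and 5414 normalized counts in MCD-LPS libraries, above both LPS libraries (3971 and 5130), with a log2 fold change of 0.28 (SE 0.10, limma adjusted p = 0.0567). It passed the threshold with edgeR (adjusted p = 0.0484) and DESeq2 (0.0110) on recovered reads. LPS replicate 1 decided the size: the log2 fold change was 0.10 without it (limma adjusted p = 0.222) and 0.47 without LPS replicate 2 (adjusted p = 1.5e-04). Snhg5 was at 537 and 530 in LPS and 595 and 660 in MCD-LPS libraries, again with no overlap (0.23, SE 0.09, limma adjusted p = 0.0836). Snhg15 was at 508 and 565 in LPS and 591 and 656 in MCD-LPS libraries (0.22, SE 0.10, limma adjusted p = 0.137).

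Neat1 was at 30339 and 32623 normalized counts in MCD-LPS libraries, between the LPS libraries and close to LPS replicate 2 (17369 and 32979). Its log2 fold change was 0.39 (SE 0.22, 95% interval −0.09 to 0.88, limma adjusted p = 0.216). Without LPS replicate 1 it was −0.07 (adjusted p = 0.445), and without LPS replicate 2 it was 0.86 (adjusted p = 1.2e-05). Malat1 was at 30068 and 31905, within the range of the LPS libraries (22320 and 37098). Its log2 fold change was 0.11 (SE 0.18, limma adjusted p = 0.712), and it passed the threshold in opposite directions without LPS replicate 1 (−0.26, adjusted p = 0.0292) and without LPS replicate 2 (0.47, adjusted p = 9.6e-04). The direction of both RNAs thus depended on which LPS library was kept.

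Snhg1, one of the first snoRNA hosts described, was at 1722 and 1770 normalized counts in LPS and 1756 and 1558 in MCD-LPS libraries (−0.08, SE 0.08, limma adjusted p = 0.502). Snhg12 was at 546 and 557 in LPS and 571 and 555 in MCD-LPS libraries (0.03, SE 0.07, limma adjusted p = 0.792). The 95% intervals of the log2 fold change were −0.25 to 0.09 for Snhg1 and −0.12 to 0.18 for Snhg12.

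In MCD-LPS against LPS, 1 of 8 RNAs was called higher and 0 lower by limma, while 25.9% of 11976 genes were called, 12.9% higher and 13.0% lower. The count is near that background. The median log2 fold change was 0.22 over the 8 RNAs and 0.003 over all genes. MCD-LPS libraries lay wholly above LPS libraries for 4 of 8 RNAs (Gas5, Snhg3, Snhg5 and Snhg15) and wholly below them for 0, against 30.3% and 30.4% of all genes. At an unadjusted p under 0.05 there were 3 of 8 (Gas5, Snhg3 and Snhg5), against 37.9%. In the limma fit of 4 libraries 0 of 8 were called, against 6.84% of all genes higher and 8.12% lower.

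**Figure D3:**
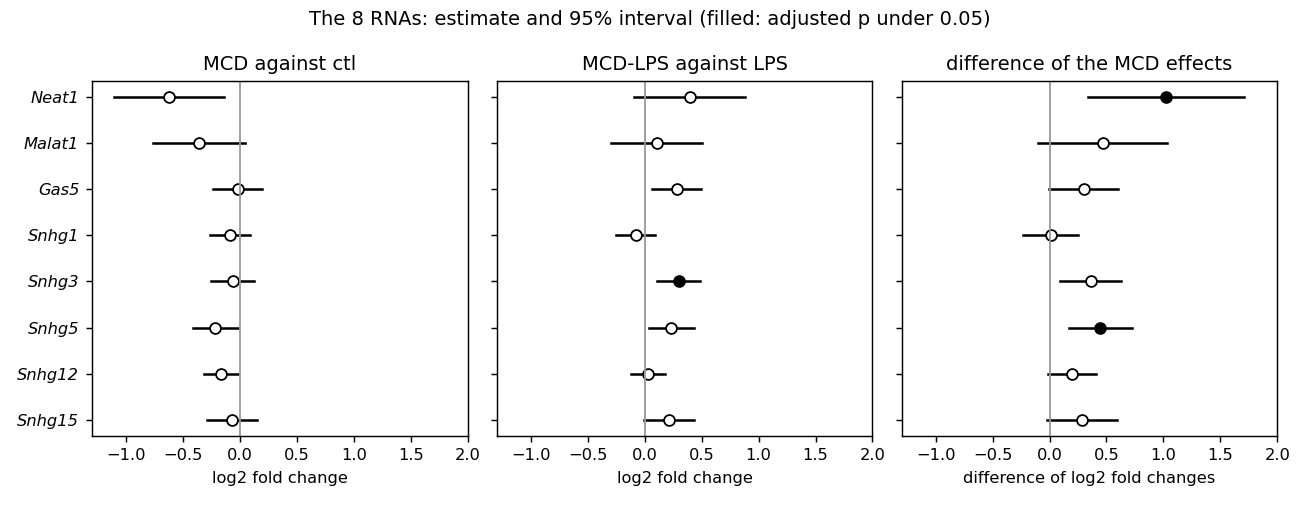
Log2 fold change of each RNA with its 95% interval in the 2 comparisons (left and middle) and for their difference (right), from limma on 8 libraries. Filled points have an adjusted p under 0.05: Snhg3 in the middle panel, and Neat1 (1.02) and Snhg5 (0.45) in the right panel.

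The difference between the MCD effects with and without LPS was tested as an interaction. MCD cells were harvested directly after MCD and MCD-LPS cells 3 h after it had ended. LPS and the time since MCD therefore cannot be told apart in this difference. For Neat1 the log2 fold change under LPS exceeded that in resting cells by 1.02 (SE 0.31, limma adjusted p = 0.0479). It lay between 0.56 without LPS replicate 1 (adjusted p = 9.3e-04) and 1.48 without LPS replicate 2 (adjusted p = 1.2e-06), so the sign did not rest on either LPS library. Without any 1 of the ctl, MCD or MCD-LPS libraries the difference was 0.96 to 1.08, and the adjusted p ran from 0.0921 to 0.142 in limma. With DESeq2 on recovered reads the adjusted p was 0.140, and with no filter on low values 0.0508. The call held in 6 of 14 alternatives.

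For Snhg5 the difference was 0.45 (SE 0.12, 95% interval 0.17 to 0.72, limma adjusted p = 0.0361), from −0.22 in resting cells to 0.23 under LPS. It passed the threshold in 10 of 14 alternatives, edgeR (adjusted p = 0.0365) and DESeq2 (0.0421) included. It did not pass without ctl replicate 1 (0.44, adjusted p = 0.103), ctl replicate 2 (0.45, 0.112), MCD replicate 2 (0.33, 0.126) or MCD-LPS replicate 2 (0.37, 0.114). For Snhg3 the difference was 0.36 (limma adjusted p = 0.0668), for Gas5 0.30 (0.157), for Snhg15 0.28 (0.183), for Snhg12 0.20 (0.181) and for Snhg1 0.01 (0.964). The difference for Malat1 was 0.47 with an SE of 0.25 (limma adjusted p = 0.233). Of the 8, 2 were called higher and 0 lower, against 7.12% and 9.99% (17.1% together) of 11545 genes, and 3 of 8 had an unadjusted p under 0.05 (Neat1, Snhg3 and Snhg5), against 32.6%. The median over the 8 was 0.33 against 0.01 over all genes. The 2 comparisons share no library, but the difference needs all 4 groups, 2 tables and thus 2 separate normalizations, each of which cancels within its own table.

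LPS and ctl libraries lie in separate tables, so their levels are set side by side in CPM, with no test. The library names of ctl and MCD share a prefix, and those of LPS and MCD-LPS share another. The labels do not say what the prefix means. LPS and a difference between these series of libraries therefore cannot be told apart. Malat1 stood 3.17 times as high in LPS as in ctl libraries (2.38 times in LPS replicate 1 and 3.95 times in LPS replicate 2), and Neat1 2.38 times as high (1.65 and 3.12 times). Gas5 was 1.24 times and Snhg3 1.10 times as high. Snhg12 (0.984 times) and Snhg15 (0.912 times) lay near the ctl level, and Snhg1 (0.834 times) and Snhg5 (0.683 times) below it. Both LPS libraries lay above both ctl libraries for Neat1, Malat1, Gas5 and Snhg3 and below them for Snhg1 and Snhg5, while Snhg12 and Snhg15 overlapped. Of 11545 genes tested in both tables, 38.4% lay wholly above and 47.5% wholly below ctl in this way, so such a separation was common. The ratio of MCD-LPS to MCD was 4.56 for Neat1 and 4.20 for Malat1.

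The ratio of Neat1 to Malat1 reads does not depend on the scaling of a library. There were 1.12 and 1.13 Neat1 reads for each Malat1 read in ctl, 1.02 and 0.862 in MCD, 0.778 and 0.889 in LPS, and 1.01 and 1.02 in MCD-LPS libraries. The ctl libraries were highest and the LPS and MCD libraries did not overlap with them. LPS and ctl libraries again differ in their name prefix. In the MCD-LPS libraries the ratio lay above both LPS libraries, although neither RNA alone separated these groups.

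Of the 26 snoRNA genes annotated within the 6 hosts, 6 had rows of their own. Of these, 4 in which the class boxes were found are shown from GENCODE M21 (GRCm38, all plus strand). They are shown because snoRNAs are the parts of host introns that outlast splicing. Capitals mark the C box (TGATGA) and the D box (CTGA) of box C/D snoRNAs and the closing ACA, 3 bases before the end, of box H/ACA snoRNAs.
Snord47 in Gas5, chr1:161038082-161038158: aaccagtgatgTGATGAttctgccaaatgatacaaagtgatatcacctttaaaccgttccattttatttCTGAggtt
Snord99 in Snhg12, chr4:132310691-132310764: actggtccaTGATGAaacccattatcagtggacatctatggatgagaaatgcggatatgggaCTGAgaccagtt
Snora16a in Snhg12, chr4:132309464-132309600: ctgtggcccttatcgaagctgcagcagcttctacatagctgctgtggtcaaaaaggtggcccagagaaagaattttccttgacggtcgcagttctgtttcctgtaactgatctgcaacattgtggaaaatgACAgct
Snora61 in Snhg12, chr4:132310240-132310369: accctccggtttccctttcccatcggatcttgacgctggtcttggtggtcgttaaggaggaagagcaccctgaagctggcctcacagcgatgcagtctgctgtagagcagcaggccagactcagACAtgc

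In normalized counts, which are not scaled to length, the rows of the snoRNAs were far below those of their hosts. Snord47 was at 6.23 to 29.3 normalized counts over the 8 libraries, Snord99 at 14.1 to 28.2, Snora16a at 21.5 to 35.2 and Snora61 at 19.6 to 29.9. Snora44 in Snhg12 was at 3.97 to 14.5 and Snord22 in Snhg1 at 34.6 to 61.3. With 4 to 61 reads per row and library, differences could hardly be detected. By limma 0 of 6 rows passed in MCD against ctl, and 0 of 5 in MCD-LPS against LPS, where Snora44 did not pass the filter on low values. These rows span only 74 to 137 bases. Annotated exons of Snhg1 and Snhg12 cover the whole gene, so reads in snoRNA rows inside them may come from the host RNA. Whether mature snoRNAs were captured was not tested.

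The genes next to the RNAs were read for the same comparisons. Calls on them are read against the 25.9% of all genes called in MCD-LPS against LPS. Frmd8, on the other side of Neat1 from Malat1, was at 2928 and 2842 normalized counts in ctl and 2993 and 2922 in MCD libraries (log2 fold change 0.04, limma adjusted p = 0.864), and it fell by 0.15 in MCD-LPS against LPS (limma adjusted p = 0.0389).

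Beside the hosts, Phactr4, the gene next to Snhg3, fell by 0.40 in MCD-LPS against LPS (limma adjusted p = 0.0030). Beside Snhg5, Syncrip, which encodes an RNA-binding protein, rose by 0.22 (limma adjusted p = 0.0036) and Zfp949 fell by 0.52 (limma adjusted p = 0.0179). They lie 38476 and 25091 bases from Snhg5. Slc3a2 and Wdr74 beside Snhg1, Serpinc1 beside Gas5, Trnau1ap between Snhg12 and Snhg3, and Myo1g and Ccm2 beside Snhg15 passed the test in neither comparison, and Rab42 beside Snhg12 did not pass the filter on low values. Zbtb37, which overlaps Gas5 on the opposite strand over 428 bases, was at 288 to 355 normalized counts in the 8 libraries. The sources used here do not say if reads were assigned by strand, and the reads of this overlap may belong to either gene.

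Genes for related proteins and further noncoding RNAs and hosts were followed as lists, at the level of RNA. No binding was measured. All genes gave 1.08% higher and 0.0340% lower in MCD against ctl and 12.9% and 13.0% in MCD-LPS against LPS. The lists were chosen with earlier results of these data known, so a count above these shares is a description and not a test. Of 9 genes for nuclear speckle proteins, 7 rose in MCD-LPS against LPS and 0 fell, with a median log2 fold change of 0.38 (0.003 over all genes). Srsf3 rose by 0.44 (SE 0.04, limma adjusted p = 2.0e-04), Srsf6 by 0.61 (SE 0.07) and Srsf2 by 0.52 (SE 0.06), all of them splicing factors of the SR family. Without any 1 LPS or MCD-LPS library the count was 7 or 8. With MCD alone 0 of 9 passed the limma test, and Srrm2 and Srsf5, the most abundant over the 8 libraries, were at 0.09 and 0.04.

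Of 14 genes for paraspeckle proteins, 7 rose in MCD-LPS against LPS and 0 fell, with a median of 0.15. Sfpq, which encodes a core paraspeckle protein, rose by 0.52 (SE 0.05, limma adjusted p = 2.7e-04), with mean normalized counts of 12019 ± 897 in LPS and 17160 ± 183 in MCD-LPS. Pspc1, which encodes a partner of SFPQ in these bodies, rose by 0.48 (SE 0.07). Without any 1 LPS or MCD-LPS library the count was 5 to 7. For the difference of the MCD effects, 7 of 9 nuclear speckle and 6 of 14 paraspeckle genes were called higher and 0 lower. Over all genes 7.12% were called higher and 9.99% lower for this difference. In MCD against ctl 0 of 14 passed the limma test, with Hnrnpk at −0.02 and Sfpq at −0.00.

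Of 8 genes for the core proteins of snoRNA particles, 4 rose in MCD-LPS against LPS and 0 fell. Nop58, which encodes a box C/D protein, rose by 0.43 (SE 0.04, limma adjusted p = 2.0e-04). Gar1 (0.31, SE 0.05), Nhp2 (0.19, SE 0.04) and Dkc1 (0.26, SE 0.07), all of box H/ACA particles, rose as well. Without MCD-LPS replicate 1, and in the limma fit of 4 libraries, the count was 2. In MCD against ctl 0 of 8 passed, and Nop56 (−0.05) and Nop58 (0.01) were the most abundant over the 8 libraries. Of 10 genes for nonsense-mediated decay factors, 4 rose in MCD-LPS against LPS and 0 fell. Among them were Smg5 (0.42, SE 0.07), Upf3a (0.35, SE 0.06) and Smg9 (0.28, SE 0.06). Dkc1 and Smg9 lay outside the rule for named genes and were chosen with their values known. In MCD against ctl 0 of 10 passed, with Smg1 at −0.07 and Smg5 at −0.07.

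Other snoRNA hosts were seen next to these RNAs. Of 12 further noncoding hosts tested in MCD-LPS against LPS, 1 rose and 0 fell. It was Snhg20, which rose by 0.63 (SE 0.12, limma adjusted p = 0.0052) and had mean normalized counts of 495 ± 60.7 in LPS and 768 ± 123 in MCD-LPS. Without LPS replicate 2 the count was 3 and without MCD-LPS replicate 1 it was 2. Snhg20 was at −0.53 in MCD against ctl (SE 0.12, limma adjusted p = 0.0900). Of 11 tested in MCD against ctl 0 passed, with a median of −0.20, and Zfas1 (−0.28, SE 0.06, limma adjusted p = 0.0740) and Snhg17 (−0.00) were the most abundant over the 8 libraries. Without LPS replicate 1, or without LPS replicate 2, 2 of 11 were lower with MCD, and in the limma fit of 4 libraries 3 were. Of 20 protein-coding hosts, 2 rose in MCD-LPS against LPS, Eif4a1 by 0.19 (SE 0.04) and Ncl, which encodes nucleolin, by 0.17 (SE 0.05), and the median was 0.002. Without MCD-LPS replicate 1 the count was 0, and without MCD replicate 1 or 2, or in the limma fit of 4 libraries, it was 1 (the call on Ncl held in 9 of 17 alternatives). In MCD against ctl 0 of 20 passed, with Eef2 at 0.01 and Rpsa at −0.04.

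Of 14 other long noncoding RNAs tested in MCD against ctl, 1 rose and 0 fell. Mir155hg, host of the inflammatory microRNA miR-155, rose by 2.51 on the log2 scale (SE 0.44, limma adjusted p = 0.0279), with mean normalized counts of 5.68 ± 2.16 in ctl and 36.4 ± 7.53 in MCD. This call held in 9 of 17 alternatives. It was lost with edgeR on 8 libraries (adjusted p = 0.581), with the replicate block (limma adjusted p = 0.0971), with a pseudocount of 5 (0.0677), with no filter (0.0843) and without any 1 of the ctl or MCD libraries (0.116 to 0.302). In MCD-LPS against LPS, Mir17hg, host of a microRNA cluster, rose by 0.68 (SE 0.11, limma adjusted p = 0.0025) and 2900097C17Rik by 0.19 (SE 0.06), and Ftx, an RNA of the X-inactivation centre, fell by 0.52 (SE 0.12). Without LPS replicate 2 the count of higher RNAs in that comparison was 6, and without LPS replicate 1, MCD replicate 1 or 2, or MCD-LPS replicate 1 it was 1. Of the genes for structural small RNAs, 2 and 3 were tested in the 2 comparisons, Rpph1 and Rmrp in both and Terc in the second, and none passed the limma test. All of these values were at most 27.9 normalized counts on average, and at an unadjusted p under 0.05 there were 0 as well.

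**Figure D4:**
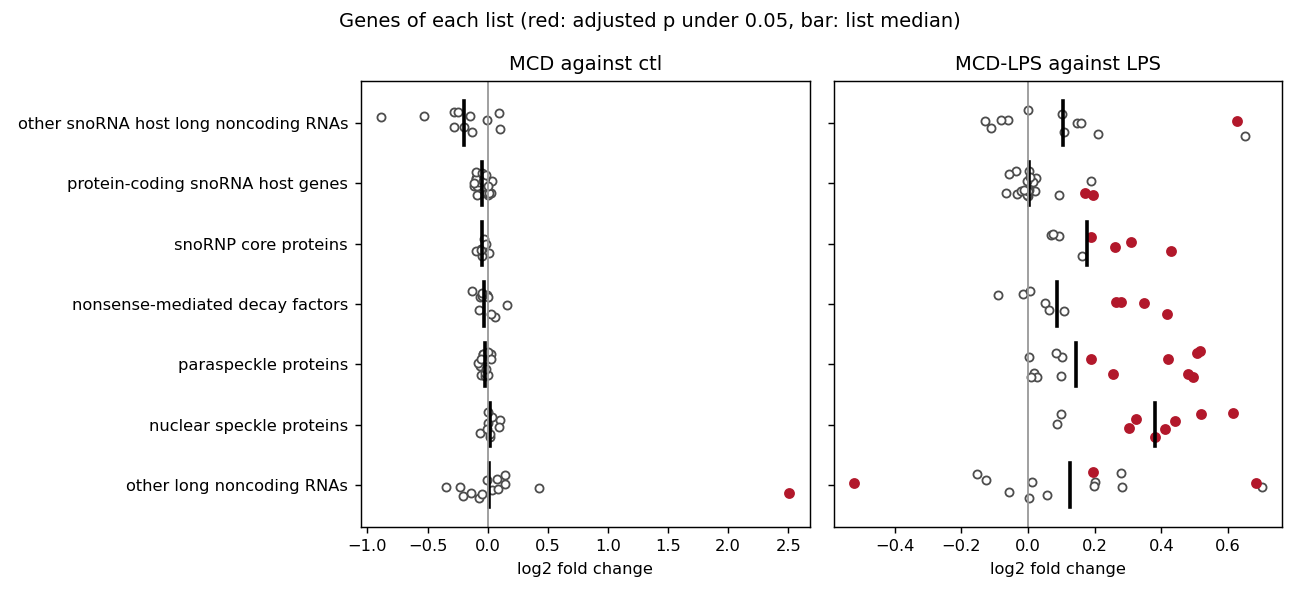
Log2 fold change of each tested gene of 7 lists in MCD against ctl (left) and MCD-LPS against LPS (right), with scales that differ between the panels. Red points have a limma adjusted p under 0.05 and bars are list medians. The lists were chosen with earlier results of these data known. Nuclear speckle (7 of 9) and paraspeckle genes (7 of 14) passed to the right of 0 under LPS, and 1 gene, Mir155hg, passed in the left panel, a call that was lost with edgeR.

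Genes whose pattern was most like that of Neat1 and Gas5 were ranked among 9939 genes by Pearson's r over the 8 libraries of log2 values centred within each table, which is a description over libraries that share their depth and scaling. For Neat1 the closest were 2700099C18Rik (r = 0.99), Snhg8 (0.96), another snoRNA host, and Eif2s3y (0.96), and Malat1 ranked 13 with r = 0.93. For Eif2s3y the differences behind its r were small in size: it was at 3835 and 4058 normalized counts in LPS and 4087 and 4104 in MCD-LPS libraries. For Gas5 the closest were Safb2 (r = 0.996), Tarbp2 (0.99) and Plekhm2 (0.99). Like Gas5, Safb2 was lowest in LPS replicate 1 of its table, at 3708 normalized counts, against 4542 in LPS replicate 2 and 4833 and 4683 in MCD-LPS libraries. The other hosts had r of −0.13 to 0.82 with Gas5.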

How the data were processed

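The authors deposited 10 tables, and 5 of them list 24421 genes. STAR 2.5.3, HTSeq 0.9.1, DESeq2 1.18.1 and mm10 are named in the submitters' processing notes per the labels, but a different quantifier appears in the study's methods, and it is not settled which made the tables. Each library column holds a deposited signal, namely gene counts that the authors scaled by a size factor, separately for each table. Division by the smallest step returned whole reads for 100% of values (tolerance 0.01). The columns for ctl and LPS were inferred from sharing a table with MCD and MCD-LPS, because a second untreated and LPS-treated set is present. Another 12 library columns were not used, nor were the authors' fold changes and p-values.

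Genes at 10 or more in 2 libraries of a table were tested with limma 3.58.1 (R 4.3.3, trend) on log2(value + 1), with 8 libraries, 4 groups and no block, and with contrasts within a table. On this scale, fold changes of low genes come out too small. P-values are two-sided and Benjamini-Hochberg adjusted at 0.05. Alternatives were edgeR 4.0.16 and DESeq2 1.42.0 on recovered reads, a replicate block, a pseudocount of 5, no filter, values scaled to their sum, the 4 libraries of a table alone, and each library left out. The edgeR and block fits on 4 libraries, and the alternatives for gene lists, were chosen after seeing the data. The fit was tested on simulated data with the same spread in all libraries. No simulated replicates lay as far apart as the LPS replicates of Neat1 and Malat1 by design, so the simulation does not bear on those values.

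The members and gene lists were chosen with earlier results of these data known. Named in the text are the 8 RNAs, their nearest genes, up to 3 called genes per list and comparison with the smallest p (where none passed, the 2 most abundant over the 8 libraries), and the 3 genes most like Neat1 and Gas5 among those at 100 or more. Older symbols were matched through RefSeq. A few genes that this rule names are not reported here.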

Additional observations from a re-analysis of the deposited data

Results flagged for a closer look

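The effect of MCD on Neat1 differed between resting and LPS-treated cells by 1.02 on the log2 scale (SE 0.31, limma interaction adjusted p = 0.0479, n = 2 per group), from −0.62 without LPS to 0.39 with it. Both MCD libraries lay below both ctl libraries, and both MCD-LPS libraries lay above 1 of 2 LPS libraries. The LPS replicates of Neat1 differed 1.90-fold, and the part of that difference in the result was measured by leaving each out, which gave 0.56 and 1.48. Since MCD-LPS cells were harvested 3 h after MCD had ended, LPS and the time since MCD cannot be told apart.

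The effect of MCD on Snhg5 differed by 0.45 (SE 0.12, limma interaction adjusted p = 0.0361), from −0.22 without LPS to 0.23 with it. Both MCD libraries were below both ctl libraries and both MCD-LPS libraries above both LPS libraries, and the LPS replicates agreed within 0.02 on the log2 scale. The MCD replicates agreed less, with a log2 ratio of −0.24, and 2.66% of genes differed more. Without MCD replicate 1 the log2 fold change in resting cells was −0.34, and without MCD replicate 2 it was −0.10. The difference of the MCD effects ran from 0.33 to 0.57 with 1 library left out. For Snhg5 too, LPS and the time since MCD cannot be told apart.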

How the results depend on the processing

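Each library had 1 partner in its group, and a single LPS replicate set the size and sign of the Neat1 and Malat1 values under LPS. Of 384 values of single RNAs under an alternative, 342 kept their side of the threshold, 21 lost the call, 20 gained it and 1 was called in the opposite direction (Malat1 in MCD-LPS against LPS, −0.26 without LPS replicate 1, with a range of −0.26 to 0.47 over the libraries left out). The cause of these changes was not tested.

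In MCD against ctl, 127 genes were called higher and 4 lower, with 0 of 8 RNAs. With only the 4 libraries of the table the counts were 450 higher and 115 lower, with 2 of 8 RNAs lower. With edgeR on those 4 libraries they were 449 and 111, again with 2 of 8 RNAs lower. Without a filter they were 84 and 1, and with DESeq2 200 and 15. With 1 library left out they ran from 27 to 289 higher and from 0 to 31 lower, with 0 to 2 of 8 RNAs lower.

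In MCD-LPS against LPS, 1548 genes were called higher and 1551 lower, with 1 of 8 RNAs higher. With only the 4 libraries of the table they were 819 and 972, and with edgeR on those libraries 772 and 971, with 0 of 8 RNAs in both. With edgeR on 8 libraries 2 of 8 RNAs were higher. With 1 library left out the counts ran from 890 to 1795 higher and from 924 to 1605 lower, with 0 to 4 of 8 RNAs higher and 0 to 1 lower.

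For the difference of the MCD effects, 822 genes were higher and 1153 lower, with 2 of 8 RNAs higher. Without a filter, and with DESeq2, 1 of 8 RNAs was higher. With 1 library left out the counts ran from 245 to 1306 higher and from 576 to 1385 lower, with 0 to 5 of 8 RNAs higher. A pseudocount of 5 and values scaled to their sum changed no count of RNAs.

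The replicate numbers did not pair the libraries (correlation of deviations 0.04 for ctl with MCD and 0.03 for LPS with MCD-LPS). With a replicate block on 8 libraries, 1 gene was lower in MCD against ctl, and 2 of 8 RNAs were higher in MCD-LPS against LPS, Gas5 being added. With the block on 4 libraries, 700 genes were higher and 298 lower in MCD against ctl, with 3 of 8 RNAs lower, and 0 of 8 RNAs were higher in MCD-LPS against LPS.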

Other observations

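Other tables of the same deposit give the authors' mean over libraries that are not among the 8 samples, with no spread. Scaled to the sum of such means, Neat1 was at 318 CPM in LPS-treated marrow macrophages with and without acetylated LDL, 306 in another set of RAW cells, untreated or given LPS, and 577 in RAW cells given a statin, with or without LPS. Malat1 was at 195, 222 and 484 CPM. In the tables described above the means were 216 CPM for Neat1 in ctl and MCD libraries and 699 in LPS and MCD-LPS libraries. These means pool unlike treatments, so they are not matched to each other. The pooled Malat1 mean of the other RAW set (222 CPM) was below the mean of ctl libraries alone here (233). The Neat1 mean of that set (306 CPM) lay between those of ctl (262) and LPS libraries (625). The ratios of LPS to ctl given above were not examined in that set.

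The snoRNA hosts stood lower in the marrow macrophages than in each table of RAW cells, except for Snhg3. Gas5 was at 24.4 CPM there and at 87.9 to 124 in the 4 tables of RAW cells, Snhg1 at 9.15 against 32.9 to 50.4, Snhg5 at 5.07 against 8.07 to 18.0, Snhg12 at 3.07 against 10.8 to 17.9 and Snhg15 at 4.18 against 10.2 to 14.3. Snhg3 was at 4.85 in marrow macrophages and at 4.12 to 10.3 in RAW cells. These tables were normalized separately and differ in more than the cell type, so no test was made.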
